A study of Mus musculus with 14 samples.

Results

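Kidneys of 9-week-old mice labelled Control were compared 5 h after ischaemia-reperfusion (IR) injury and 5 h after sham surgery, across all genes. The comparison used 6 libraries, 3 Control IR and 3 Control sham, picked by library name from the 14 samples of the series. The remaining samples, 6 libraries from VE-PTPiKO mice and 2 single-cell samples, were not used. RNA came from the whole kidney in every library, so all cell types of the organ are mixed, and fewer cells of a type cannot be told apart from less RNA per cell. The strain and alleles of the Control mice, their sex and the length of ischaemia in these kidneys are not stated in the labels used here. The labels also do not say that replicates were separate animals, so p-values measure the spread between these samples, which may be technical.

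In IR injury the blood supply of the kidney is stopped and then restored. The proximal tubule, which takes most of its energy from fatty acids and makes glucose from lactate and amino acids, is the segment best known for damage. Within hours, surviving tubule cells switch on immediate early transcription factors, heat shock and unfolded protein responses, and secreted injury proteins.

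Between 16208769 and 20327711 reads per library fell in genes. Levels are given below as normalised counts, the reads of a gene divided by the size factor of its library, in the order of replicates 1 to 3. The libraries carried kidney transcripts in both groups. Slc34a1, the phosphate carrier of the proximal tubule, stood at 112926, 108688 and 103176 in sham and 112526, 107519 and 104479 in IR, and Umod, the uromodulin of the thick ascending limb, at 72909, 77328 and 72385 in sham and 67599, 81031 and 76395 in IR. Neither gene separated the groups. Control sham replicate 2 stood apart in Malat1, a nuclear long RNA, which took 1.02% of its reads and 0.327 to 0.506% of the reads of the other 5 libraries. Haemoglobin genes took 0.00554 to 0.017% of reads in sham and 0.0307 to 0.0566% in IR libraries.

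Of 16257 genes tested by limma, 1870 passed a Benjamini-Hochberg adjusted p under 0.05, which is 11.5% of those tested. Higher in IR were 1216 genes (7.48%) and lower were 654 (4.02%). The rises were larger than the falls: 135 genes rose and 38 fell by more than 4-fold, and 34 rose and 10 fell by more than 8-fold. The median change was 1.79-fold among genes that rose and 1.75-fold among genes that fell, beside a median log2 fold change of -0.01 over all genes tested. Genes that rose took 6.27, 6.51 and 6.54% of reads in the sham libraries and 11.2, 12.5 and 11.6% in the IR libraries. Genes that fell took 8.04, 8.56 and 8.55% in sham and 5.00, 4.43 and 4.69% in IR. Control IR replicate 2 was farthest from the sham mean for 666 of the 1216 genes that rose and 267 of the 654 that fell. Without it 843 genes passed, 600 up and 243 down. The count down was also moved by Control sham replicate 3, without which 381 passed, and by Control IR replicate 3, without which 418 passed.

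**Figure D1:**
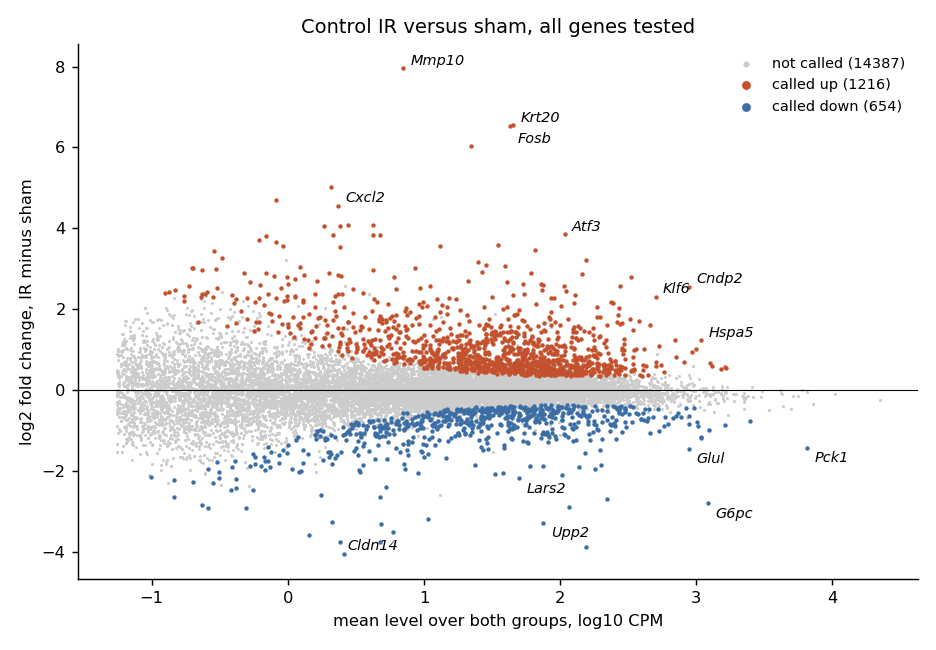
Each point is 1 of the 16257 genes tested. The horizontal axis is the mean level over both groups in log10 CPM (reads of the gene per 1000000 reads of the library), and the vertical axis is the log2 fold change of IR minus sham, with genes called up in red (1216), called down in blue (654) and not called in grey. The largest rises reach further from 0 than the largest falls, and Pck1 and G6pc are among the falls at high level.

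The share of genes called up grew with level. It was 1.66% in the fifth of genes with the lowest mean CPM and 12.0% in the fifth with the highest, while the share called down went from 1.01% to 5.90%. Genes with the largest rises were short. The 135 genes up more than 4-fold had a median genomic span of 7058 bases and the 34 up more than 8-fold one of 5862, against 20480 over all genes tested. Over all 1216 genes that rose it was 21020 bases. Short spans were not limited to rises, as the 211 genes down more than 2-fold had a median of 13870 bases.

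Mmp10, a matrix metalloproteinase that cuts basement membrane proteins (mm10, chromosome 9, 7502342 to 7510242), had no read in any sham library and stood at 323, 211 and 224 normalised counts in the IR libraries. Set against 3 reads in each sham library, the floor that a count of 0 allows, it was higher by a factor of 81.9 or more, and of 70.5 or more without Control IR replicate 1 (limma adjusted p = 9.52e-07). Krt20, an intermediate filament protein of injured tubule cells, read 7.90, 16.7 and 27.9 in sham and 2148, 1218 and 1428 in IR. The groups lay far apart, a rise of 93.7-fold, log2 6.55 ± 0.37 SE, adjusted p = 4.09e-06, and Control IR replicate 1 was the highest library. Emp1, a membrane protein of epithelia, read 556, 463 and 539 in sham and 5212, 6268 and 3495 in IR, and rose 9.35-fold, log2 3.23 ± 0.18 SE, adjusted p = 4.09e-06. Gprc5a, an orphan receptor of epithelial cells, read 88.00, 74.7 and 92.3 in sham and 739.9, 1156 and 523 in IR and rose 8.94-fold, log2 3.16 ± 0.25 SE, adjusted p = 3.05e-05. Every IR library exceeded every sham library for these genes, but the rule for the top genes by fold change required groups that do not overlap. This held for 1863 of the 1870 called genes and for 29.4% of all genes tested. Ch25h, which makes 25-hydroxycholesterol, read 33.8, 26.3 and 32.2 in sham and 269, 429 and 143 in IR. Its rise of 8.08-fold, log2 3.01 ± 0.34 SE, adjusted p = 0.000232 came with a wide spread in IR, where replicate 3 was lowest and replicate 2 highest.

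**Figure D2:**
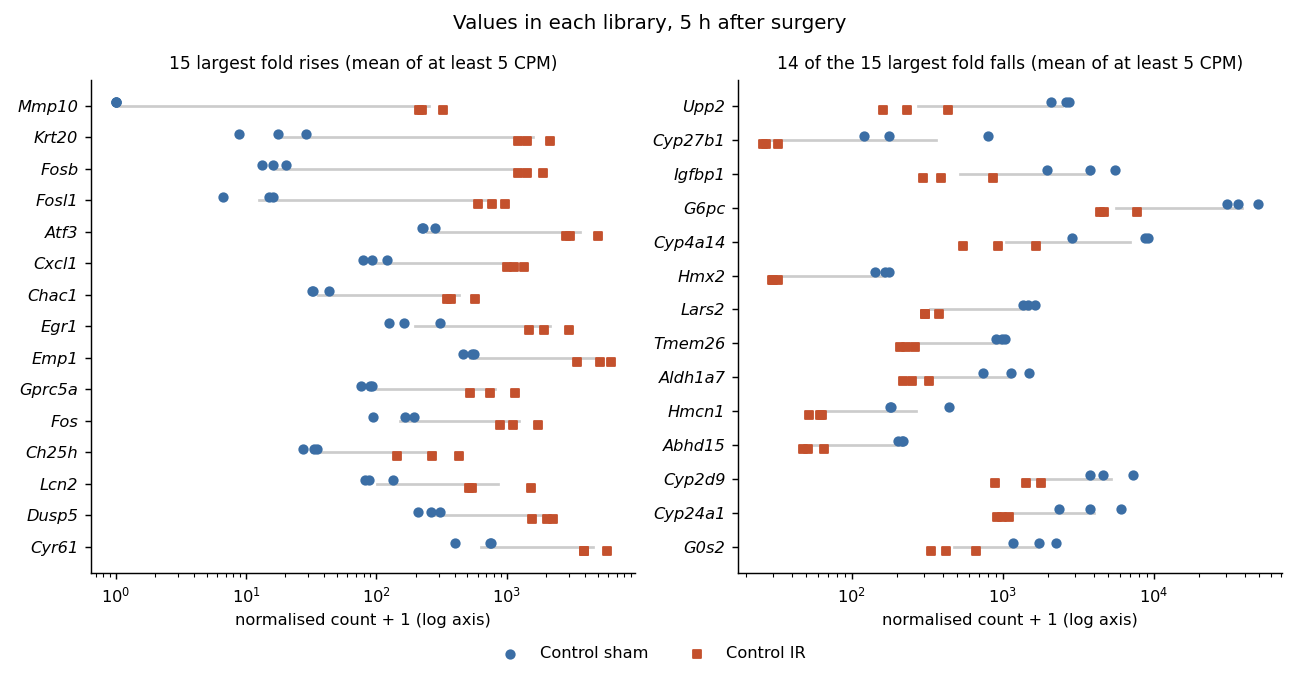
Each point is 1 library, on a log axis of normalised count plus 1, with sham in blue circles, IR in red squares and a grey line joining the group means. The left panel shows the 15 largest fold rises and the right panel 14 of the 15 largest fold falls. They were taken from called genes whose groups do not overlap, with mean levels of 5 CPM or more. Separation of the groups was therefore a condition for being shown. Mmp10 sits at 0 reads in all 3 sham libraries.

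Transcription factors of the immediate early class rose. AP-1 dimers of FOS, JUN and ATF proteins drive genes of growth, wound repair and stress, and 7 of 13 such factors rose while 0 fell (median log2 1.26). Fosb read 19.2, 12.3 and 15.03 in sham and 1433, 1883 and 1226 in IR. No library of either group came near the other group, and the rise was 91.7-fold, log2 6.52 ± 0.21 SE, adjusted p = 1.41e-07. Fosl1 read 5.64, 14.1 and 15.03 in sham and 777, 966 and 603 in IR. Its fitted rise was 65.7-fold, log2 6.04 ± 0.33 SE, adjusted p = 4.05e-06, but 57.2% of its exons overlap the antisense gene Ccdc85b, and the sources used here do not say whether reads were assigned by strand. Cebpd, Slc34a1, Acaa1b and Alas2, described elsewhere, have smaller overlaps with another gene. Atf3 read 281, 227 and 223 in sham and 2858, 4992 and 3058 in IR, a rise of 14.5-fold, log2 3.85 ± 0.19 SE, adjusted p = 3.18e-06. Fos read 193, 93.1 and 164 in sham and 888, 1739 and 1127 in IR, and Control IR replicate 2 was the highest of the 3 libraries. Fos rose 8.33-fold, log2 3.06 ± 0.28 SE, adjusted p = 7.67e-05. Jund, already high in sham, read 3816, 2759 and 2790.4 in sham and 7694, 7498 and 6989 in IR and rose 2.39-fold, log2 1.26 ± 0.13 SE, adjusted p = 0.000172.

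Among EGR, NR4A and IER genes 9 of 12 rose and 0 fell. Egr1, a zinc finger factor induced by growth signals, read 307, 163 and 125 in sham and 1492, 3008 and 1937 in IR. The sham libraries differed among themselves by more than 2-fold, yet the highest sham library lay well below the lowest IR library (rise of 11.1-fold, log2 3.47 ± 0.31 SE, adjusted p = 6.76e-05). Egr2 read 6.77, 7.03 and 13.96 in sham and 116, 142 and 161 in IR and rose 14.3-fold, log2 3.84 ± 0.32 SE, adjusted p = 4.06e-05. Of 14 Krüppel-like and GLIS factors 6 rose and 1 fell. Klf6, an epithelial injury factor, was among the 10 largest rises in CPM of all genes. It read 2685, 3050.4 and 3401 in sham and 14289, 17332 and 13450.1 in IR and rose 4.93-fold, log2 2.30 ± 0.13 SE, adjusted p = 4.09e-06. Klf15, a factor that supports amino acid and glucose metabolism, fell from 4961, 3149.7 and 4053 in sham to 2047, 1684 and 1958 in IR, 2.11-fold, log2 -1.08 ± 0.16 SE, adjusted p = 0.00127. Of 6 C/EBP factors 4 rose and 0 fell, among them Cebpd (2.52-fold, log2 1.34 ± 0.19 SE, adjusted p = 0.00123).

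Factors that define the nephron moved in both directions, 3 up and 7 down of 20 (median log2 -0.45). The count down was 4 without sham replicate 3, or IR replicate 1 or 2. Among those that rose, Irx3 missed the threshold without any 1 library other than sham replicate 2 (highest adjusted p 0.119). Pax8, a factor that builds the renal epithelium, read 2264, 2234 and 2533 in sham and 4490.3, 4558 and 4284 in IR, with little spread in either group (1.90-fold, log2 0.92 ± 0.10 SE, adjusted p = 0.000184). Esrrb, an orphan nuclear receptor, read 1281, 1514 and 1244 in sham and 551, 455 and 702 in IR and fell 2.39-fold, log2 -1.26 ± 0.16 SE, adjusted p = 0.000483. Tfap2b, a factor of the distal nephron, fell 2.09-fold, log2 -1.06 ± 0.19 SE, adjusted p = 0.0039, and Maf fell 1.95-fold, log2 -0.96 ± 0.11 SE, adjusted p = 0.000317. Hnf4a, the master factor of the proximal tubule, read 23917, 23254 and 27618 in sham and 22052, 19199 and 19179 in IR. All its IR libraries lay below the sham libraries, but the difference did not pass (log2 -0.31 ± 0.13 SE, adjusted p = 0.169). Among repair factors 6 of 17 rose and 0 fell. Sox9, which marks tubule cells that divide after injury, read 4.51, 17.6 and 12.9 in sham and 159.6, 153 and 162 in IR and rose 14.2-fold, log2 3.82 ± 0.40 SE, adjusted p = 0.000146. The clock also moved. Of 19 circadian clock and output factors 4 rose and 5 fell, and the count down was 1 without IR replicate 2 or 3 and 3 without sham replicate 2. Among those that rose were Npas2 at 51.9, 34.3 and 51.5 in sham and 104, 216 and 208 in IR (3.65-fold, log2 1.87 ± 0.30 SE, adjusted p = 0.00237) and the repressor Nr1d1 at 455, 448 and 344 in sham and 1133, 1059 and 1186 in IR (2.72-fold, log2 1.45 ± 0.13 SE, adjusted p = 7.67e-05).

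Promoter sequences were searched for AP-1 and other motifs. RefSeq windows of 250 bases before the start were matched for 12762 of the 16257 genes tested, 946 of 1216 that rose and 523 of 654 that fell. The AP-1 site was taken as TGACTCA or TGAGTCA, which are the same site on opposite strands. It occurred in 446 windows of all tested genes (3.50%), 60 of genes that rose (6.34%), 44 of 368 genes up more than 2-fold (12.0%) and 21 of 98 genes up more than 4-fold (21.4%). Among genes that fell it occurred in 18 windows (3.44%), and in 10 of 163 genes down more than 2-fold (6.13%). The C/EBP-ATF element, TGATGCAA on either strand, was in 0.627% of all windows and in 6 of 98 genes up more than 4-fold (6.12%). The TATA box, TATAAA on either strand, was in 7.66% of all windows, 15.3% of genes up more than 4-fold and 12.3% of genes down more than 2-fold. Any of these motifs may overlap another. A match says that these letters are present and does not show that a factor binds there.

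**Figure D3:**
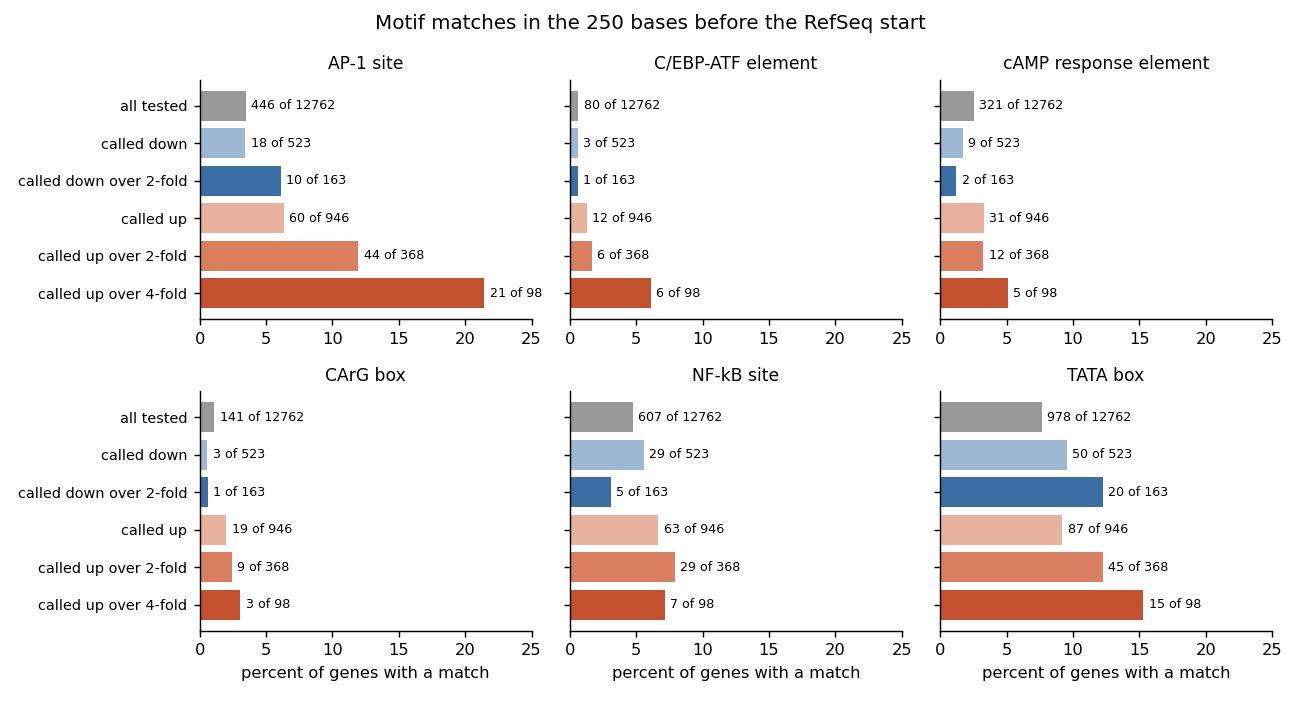
Each panel is 1 motif and each bar a set of genes, with the percent of their RefSeq windows that hold a match on the horizontal axis and the counts written beside the bar. The AP-1 share steps up from 3.50% of all tested genes to 21.4% of genes up more than 4-fold. Among falls it is 3.44% of genes called down and 6.13% of genes down more than 2-fold.

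The sequences below were picked to show matches in genes of large rise. Matches are in capitals, with RefSeq coordinates of GRCm38.p6, the assembly also called mm10. The windows of Klf6 and Dnajb1, which rose, and of Pck1 and Acot1, which fell, held no AP-1 site or C/EBP-ATF element. G6pc, which fell, holds a C/EBP-ATF element 138 to 131 bases before the start and a TATA box at 29 to 24. Mmp10 (chr9:7502092-7502341, plus strand) holds an AP-1 site 63 to 57 bases before the start and a TATA box 29 to 24 bases before it. TATA boxes are in capitals only within 50 bases of the start. Emp1 (chr6:135362681-135362930, plus strand) holds an AP-1 site at 145 to 139. Sprr1a (chr3:92485882-92486131, minus strand), a cornified envelope protein of stressed epithelium, holds AP-1 sites at 146 to 140 and 116 to 110 and a TATA box at 43 to 38.
Mmp10: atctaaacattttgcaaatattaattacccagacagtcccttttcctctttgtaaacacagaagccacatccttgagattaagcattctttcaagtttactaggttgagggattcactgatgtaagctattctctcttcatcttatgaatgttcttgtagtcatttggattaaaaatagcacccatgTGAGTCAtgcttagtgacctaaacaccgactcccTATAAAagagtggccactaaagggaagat
Emp1: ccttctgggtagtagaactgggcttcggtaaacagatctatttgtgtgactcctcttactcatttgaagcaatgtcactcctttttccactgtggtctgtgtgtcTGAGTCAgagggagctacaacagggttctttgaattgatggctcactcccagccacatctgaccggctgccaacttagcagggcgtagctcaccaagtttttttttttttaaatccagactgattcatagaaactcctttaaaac
Sprr1a: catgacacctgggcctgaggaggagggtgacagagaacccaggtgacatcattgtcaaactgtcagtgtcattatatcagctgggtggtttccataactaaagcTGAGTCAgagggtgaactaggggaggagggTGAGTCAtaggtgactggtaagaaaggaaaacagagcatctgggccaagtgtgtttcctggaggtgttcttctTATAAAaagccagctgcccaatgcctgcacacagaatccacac

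Signals that restrain growth factor and cytokine pathways rose with the factors above. DUSP phosphatases switch off MAP kinases and Sprouty proteins dampen receptor signals, and 10 of 17 in this list rose while 0 fell by limma. DESeq2 called 1 member down. The count up was 6 without sham replicate 3, or IR replicate 2. Dusp5, which acts on nuclear ERK, read 307, 208 and 262 in sham and 2249, 2031 and 1559 in IR and rose 7.50-fold, log2 2.91 ± 0.17 SE, adjusted p = 4.76e-06. Dusp14 read 201, 134 and 286 in sham and 1252, 1299 and 1224 in IR. Its IR libraries were nearly equal while the sham libraries differed by more than 2-fold, and the rise was 6.35-fold, log2 2.67 ± 0.22 SE, adjusted p = 4.5e-05. Of 16 NF-kB subunits and feedback genes 8 rose and 0 fell, led by the coactivator Bcl3 at 51.9, 59.7 and 35.4 in sham and 316, 310.1 and 230.3 in IR (5.80-fold, log2 2.54 ± 0.23 SE, adjusted p = 7.06e-05). Relb, a subunit of the alternative arm, was steady in sham at 144, 142 and 146 and reached 441, 384 and 426 in IR (2.88-fold, log2 1.52 ± 0.14 SE, adjusted p = 6.56e-05). In the IL-6 family with its SOCS inhibitors 10 of 18 rose and 0 fell, and the count up was 6 without IR replicate 2. Il6 itself had no read in sham and stood at 12.9, 51.1 and 22.8 in IR. Its rise, set against 3 reads per sham library, was by a factor of 9.40 or more, and of 5.81 or more when Control IR replicate 2 was left out. Clcf1, a cytokine of the same family, read 24.8, 39.5 and 44.02 in sham and 180.1, 141 and 154 in IR and rose 4.39-fold, log2 2.13 ± 0.25 SE, adjusted p = 0.000317.

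YAP and TAZ, the coactivators that sense cell stretch and contact, had 6 of 15 list members up and 0 down. The count up was 3 without sham replicate 1, or IR replicate 2 or 3. Cyr61, a secreted matrix protein, read 397, 747 and 760.1 in sham and 3893, 5844 and 3949 in IR and rose 7.35-fold, log2 2.88 ± 0.24 SE, adjusted p = 4.54e-05. Ankrd1 read 14.7, 28.1 and 38.7 in sham and 164, 269.7 and 133 in IR and rose 6.92-fold, log2 2.79 ± 0.36 SE, adjusted p = 0.000565. Both had their lowest library in sham replicate 1 and their highest in IR replicate 2. Of 11 mRNA decay regulators 4 rose (2 without IR replicate 2) and 1 fell, with Zfp36, which destabilises cytokine transcripts, at 1376, 1325 and 916 in sham and 2826, 3879 and 2979 in IR (2.69-fold, log2 1.43 ± 0.17 SE, adjusted p = 0.000346). Of 12 genes of the MYC and MAX network 3 fell (0 without IR replicate 2 and 1 without sham replicate 3, or IR replicate 3) and 1 rose. The gene that rose, Myc, stood at 380.2, 442 and 368 in sham and 1131, 1188 and 909.6 in IR (2.70-fold, log2 1.43 ± 0.14 SE, adjusted p = 9.05e-05).

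Protein stress genes rose as a group. Cytosolic heat shock proteins and co-chaperones, which hold and refold damaged proteins, had 19 of 25 members up and 0 down, and all 25 had a higher IR mean (median log2 0.64). The count up was 10 without IR replicate 2. Dnajb1, the partner of HSP70, read 748, 675 and 909 in sham and 2002, 3275 and 2315 in IR. The lowest IR library was above the highest sham library by more than 2-fold, and the rise was 3.21-fold, log2 1.68 ± 0.18 SE, adjusted p = 0.000161. Hspb1, a small heat shock protein that guards filaments, read 89.1, 85.2 and 107 in sham and 280.4, 449.9 and 276 in IR (3.47-fold, log2 1.79 ± 0.21 SE, adjusted p = 0.000326), and Bag3 read 528, 571 and 579.8 in sham and 1503, 1831 and 1461 in IR (2.84-fold, log2 1.51 ± 0.12 SE, adjusted p = 3.4e-05). Hspa1a was 4.17-fold higher, but its near-identical copy Hspa1b can share its reads.

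Chaperones of the endoplasmic reticulum and other members of the unfolded protein response had 12 of 21 up and 0 down by limma. By edgeR and by DESeq2, 1 member was called down. Herpud1 was lower (log2 -0.50) and did not pass by limma (adjusted p = 0.0545), but edgeR and DESeq2 called it. The count up was 6 without IR replicate 1 or 2 and 7 without sham replicate 3, or IR replicate 3. Hspa5, the main chaperone of that compartment, was among the largest CPM rises of all genes. It read 11334, 12087 and 11608 in sham and 29422, 28933 and 24338 in IR, and rose 2.35-fold, log2 1.23 ± 0.12 SE, adjusted p = 0.000109. Xbp1, the factor that IRE1 splices, read 2425, 2005 and 2622 in sham and 5841, 5902 and 4813 in IR (2.35-fold, log2 1.23 ± 0.13 SE, adjusted p = 0.000159), and the secreted chaperone Manf read 996, 928 and 878 in sham and 2085, 2072 and 1546 in IR (2.02-fold, log2 1.01 ± 0.13 SE, adjusted p = 0.000629). Neither overlapped between groups. Among ATF4 and CHOP targets 11 rose and 2 fell of 22. Chac1, which breaks down glutathione, read 31.6, 42.2 and 31.1 in sham and 347, 570.0 and 373 in IR and rose 11.8-fold, log2 3.56 ± 0.23 SE, adjusted p = 7.8e-06. Gdf15, a secreted stress hormone, read 424, 300.4 and 456 in sham and 1547, 2735 and 2393 in IR and rose 5.57-fold, log2 2.48 ± 0.21 SE, adjusted p = 5.34e-05. Sesn2, a brake on mTORC1, went the other way, from 5014, 3894 and 3665 in sham to 1849.8, 1679 and 1787 in IR, a fall of 2.34-fold, log2 -1.23 ± 0.13 SE, adjusted p = 0.000146, and so did Ddit4 (1.96-fold, log2 -0.97 ± 0.18 SE, adjusted p = 0.00558).

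Promoter windows of every gene list were searched for the same motifs. The ER stress response element was in 8 of 18 windows of the endoplasmic reticulum list (44.4%) and 0.149% of all windows. The C/EBP-ATF element was in 5 of 20 windows of the ATF4 and CHOP list (25%). Members of both of these lists include known targets of the factors that read these motifs. In the heat shock list the heat shock element was in 2 of 20 windows (10%), beside 0.376% of all windows, and the Dnajb1 window held none. The AP-1 site was in 0 of 12 windows of the AP-1 factors. Hspa5 (chr2:34771840-34772089, plus strand) has its ER stress response element 65 to 47 bases before the start and an AP-1 site at 182 to 176. Chac1 (chr2:119350992-119351241, plus strand) has a C/EBP-ATF element at 193 to 186, and Atf3 (chr1:191183334-191183583, minus strand) has one at 110 to 103.
Hspa5: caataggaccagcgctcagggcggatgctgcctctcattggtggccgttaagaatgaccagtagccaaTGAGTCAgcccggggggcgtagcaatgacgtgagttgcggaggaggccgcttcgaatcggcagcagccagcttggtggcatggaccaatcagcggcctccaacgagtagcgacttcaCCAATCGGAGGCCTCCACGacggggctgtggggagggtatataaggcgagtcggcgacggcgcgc
Chac1: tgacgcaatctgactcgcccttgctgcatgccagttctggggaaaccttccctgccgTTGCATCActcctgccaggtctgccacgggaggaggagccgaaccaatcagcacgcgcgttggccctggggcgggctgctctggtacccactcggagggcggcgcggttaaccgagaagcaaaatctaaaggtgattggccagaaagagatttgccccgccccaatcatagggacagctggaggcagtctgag
Atf3: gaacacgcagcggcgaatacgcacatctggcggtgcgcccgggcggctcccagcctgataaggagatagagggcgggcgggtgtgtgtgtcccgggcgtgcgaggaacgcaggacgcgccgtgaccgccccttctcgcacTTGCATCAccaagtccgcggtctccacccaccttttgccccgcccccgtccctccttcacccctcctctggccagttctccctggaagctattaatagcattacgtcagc

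Other stress lists moved in part. Of 25 p53 targets 10 rose and 2 fell, with Gadd45a at 332, 326 and 451 in sham and 1369, 1669.5 and 1064 in IR (3.67-fold, log2 1.88 ± 0.18 SE, adjusted p = 9.31e-05), where 19.1% of its exons overlap an antisense gene. Cdkn1a, the p21 cell cycle inhibitor, read 674, 703 and 862 in sham and 1466, 2024 and 1667 in IR (2.30-fold, log2 1.20 ± 0.14 SE, adjusted p = 0.000353). Of 22 NRF2 targets 6 rose and 0 fell by limma, while DESeq2 called 2 down. The count up was 2 without IR replicate 2 and 3 without IR replicate 1. Srxn1, sulfiredoxin, went from 1589.7, 1046 and 1913 in sham to 9386, 13446 and 8529 in IR, 6.96-fold, log2 2.80 ± 0.22 SE, adjusted p = 3.11e-05. The metal-binding proteins Mt1 and Mt2 were the 2 members of 12 metallothionein and zinc transporter genes that rose, Mt2 from 1965, 1492 and 1292 to 6805, 9519 and 5259 (4.48-fold, log2 2.16 ± 0.21 SE, adjusted p = 9.41e-05). Of 28 hypoxia-inducible genes 5 rose and 2 fell (median log2 -0.04). The count up was 2 without IR replicate 2 and 3 without IR replicate 3, and the count down 0 without sham replicate 1, or IR replicate 1, 2 or 3, 1 without sham replicate 3 and 4 without sham replicate 2. Slc2a1, the GLUT1 carrier, read 861, 799 and 910.4 in sham and 1904, 2419 and 1927 in IR (2.42-fold, log2 1.27 ± 0.12 SE, adjusted p = 9.25e-05). Of 15 glucocorticoid response genes 4 rose and 5 fell, and the count down was 2 without sham replicate 3, or IR replicate 2 or 3 and 3 without sham replicate 2. Tsc22d3 (GILZ), a classical target of the hormone, fell from 4772, 5099.5 and 5525 to 2547, 2104 and 2021 (2.32-fold, log2 -1.21 ± 0.12 SE, adjusted p = 9.93e-05).

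Genes of cell structure rose broadly. Keratins and other intermediate filament or envelope genes had 12 of 15 up and 0 down, the highest share of any list here (80%, beside 7.48% of all genes). Lower at an unadjusted p under 0.05 were 2 members, and edgeR and DESeq2 called 0 down. Krt8, a keratin of simple epithelia, read 1459, 1183 and 1649 in sham and 9081, 8596 and 7529 in IR. Control IR libraries stood close together, and the rise was 5.91-fold, log2 2.56 ± 0.13 SE, adjusted p = 3.82e-06. Krt19 read 97.03, 90.5 and 156 in sham and 444, 482 and 330.2 in IR (3.70-fold, log2 1.89 ± 0.23 SE, adjusted p = 0.000353), and Vim, the filament of mesenchymal and injured tubule cells, rose 2.24-fold, log2 1.16 ± 0.12 SE, adjusted p = 0.000142. Actin and focal adhesion genes had 15 of 31 up (9 without IR replicate 2) and 0 down. Structural genes that rose included the nuclear lamin Lmna at 1532, 1308 and 1565 in sham and 4852, 5859 and 4821 in IR (3.52-fold, log2 1.82 ± 0.12 SE, adjusted p = 8.73e-06). Ezr, which ties actin to the brush border membrane, stood at 7429, 8612 and 6315 in sham and 18511, 17940.2 and 15796 in IR (2.35-fold, log2 1.23 ± 0.14 SE, adjusted p = 0.000199). Vcl rose 2.47-fold, log2 1.31 ± 0.12 SE, adjusted p = 7.06e-05, with 25.5% of its exons overlapping the antisense gene Ap3m1. Of 14 tubulin and microtubule genes 7 rose (2 without IR replicate 2 and 4 without IR replicate 3) and 0 fell, led by Tubb6 at 245, 285 and 408 in sham and 1563, 1963 and 1333 in IR (5.22-fold, log2 2.38 ± 0.19 SE, adjusted p = 3.89e-05).

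Adhesion receptors had 9 of 20 members up and 0 down. Plaur, the urokinase receptor, read 199.7, 245 and 347 in sham and 1299, 1782 and 978 in IR (5.09-fold, log2 2.35 ± 0.23 SE, adjusted p = 0.000114), and the laminin receptor subunit Itga6 read 2289, 2651 and 2411 in sham and 6667, 8459.7 and 8305 in IR (3.17-fold, log2 1.67 ± 0.12 SE, adjusted p = 1.91e-05). Itgb6, which activates latent TGF-beta, rose 3.09-fold, log2 1.63 ± 0.14 SE, adjusted p = 6.55e-05. Junction genes split, 8 up and 2 down of 22. Cldn4, a claudin of the distal nephron, read 624, 389 and 595 in sham and 2879.9, 4872 and 2146 in IR. The IR libraries differed by more than 2-fold among themselves but all lay above sham (5.92-fold, log2 2.57 ± 0.27 SE, adjusted p = 0.000148). Tjp3, a scaffold of tight junctions, read 152, 177 and 118 in sham and 69.03, 74.4 and 64.7 in IR and fell (2.11-fold, log2 -1.08 ± 0.20 SE, adjusted p = 0.00619). Cldn14, a claudin that limits calcium uptake in the thick ascending limb, read 159, 19.3 and 76.2 in sham and 2.16, 7.17 and 2.85 in IR. It fell by 3.77 on the log2 scale (13.6-fold lower), and was 8.55-fold lower without Control sham replicate 1 and 24.0-fold lower without replicate 2. Adding 5 in place of 1 before the logarithm gave 7.80-fold, and DESeq2 gave 20.7-fold. Of 16 annexin and S100 genes 8 rose (4 without IR replicate 2) and 0 fell, with S100a10 at 2039, 1645 and 3226 in sham and 7264, 7619 and 6463 in IR (3.21-fold, log2 1.68 ± 0.20 SE, adjusted p = 0.000365) and its partner Anxa2 rising 2.99-fold, log2 1.58 ± 0.15 SE, adjusted p = 8.39e-05.

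**Figure D4:**
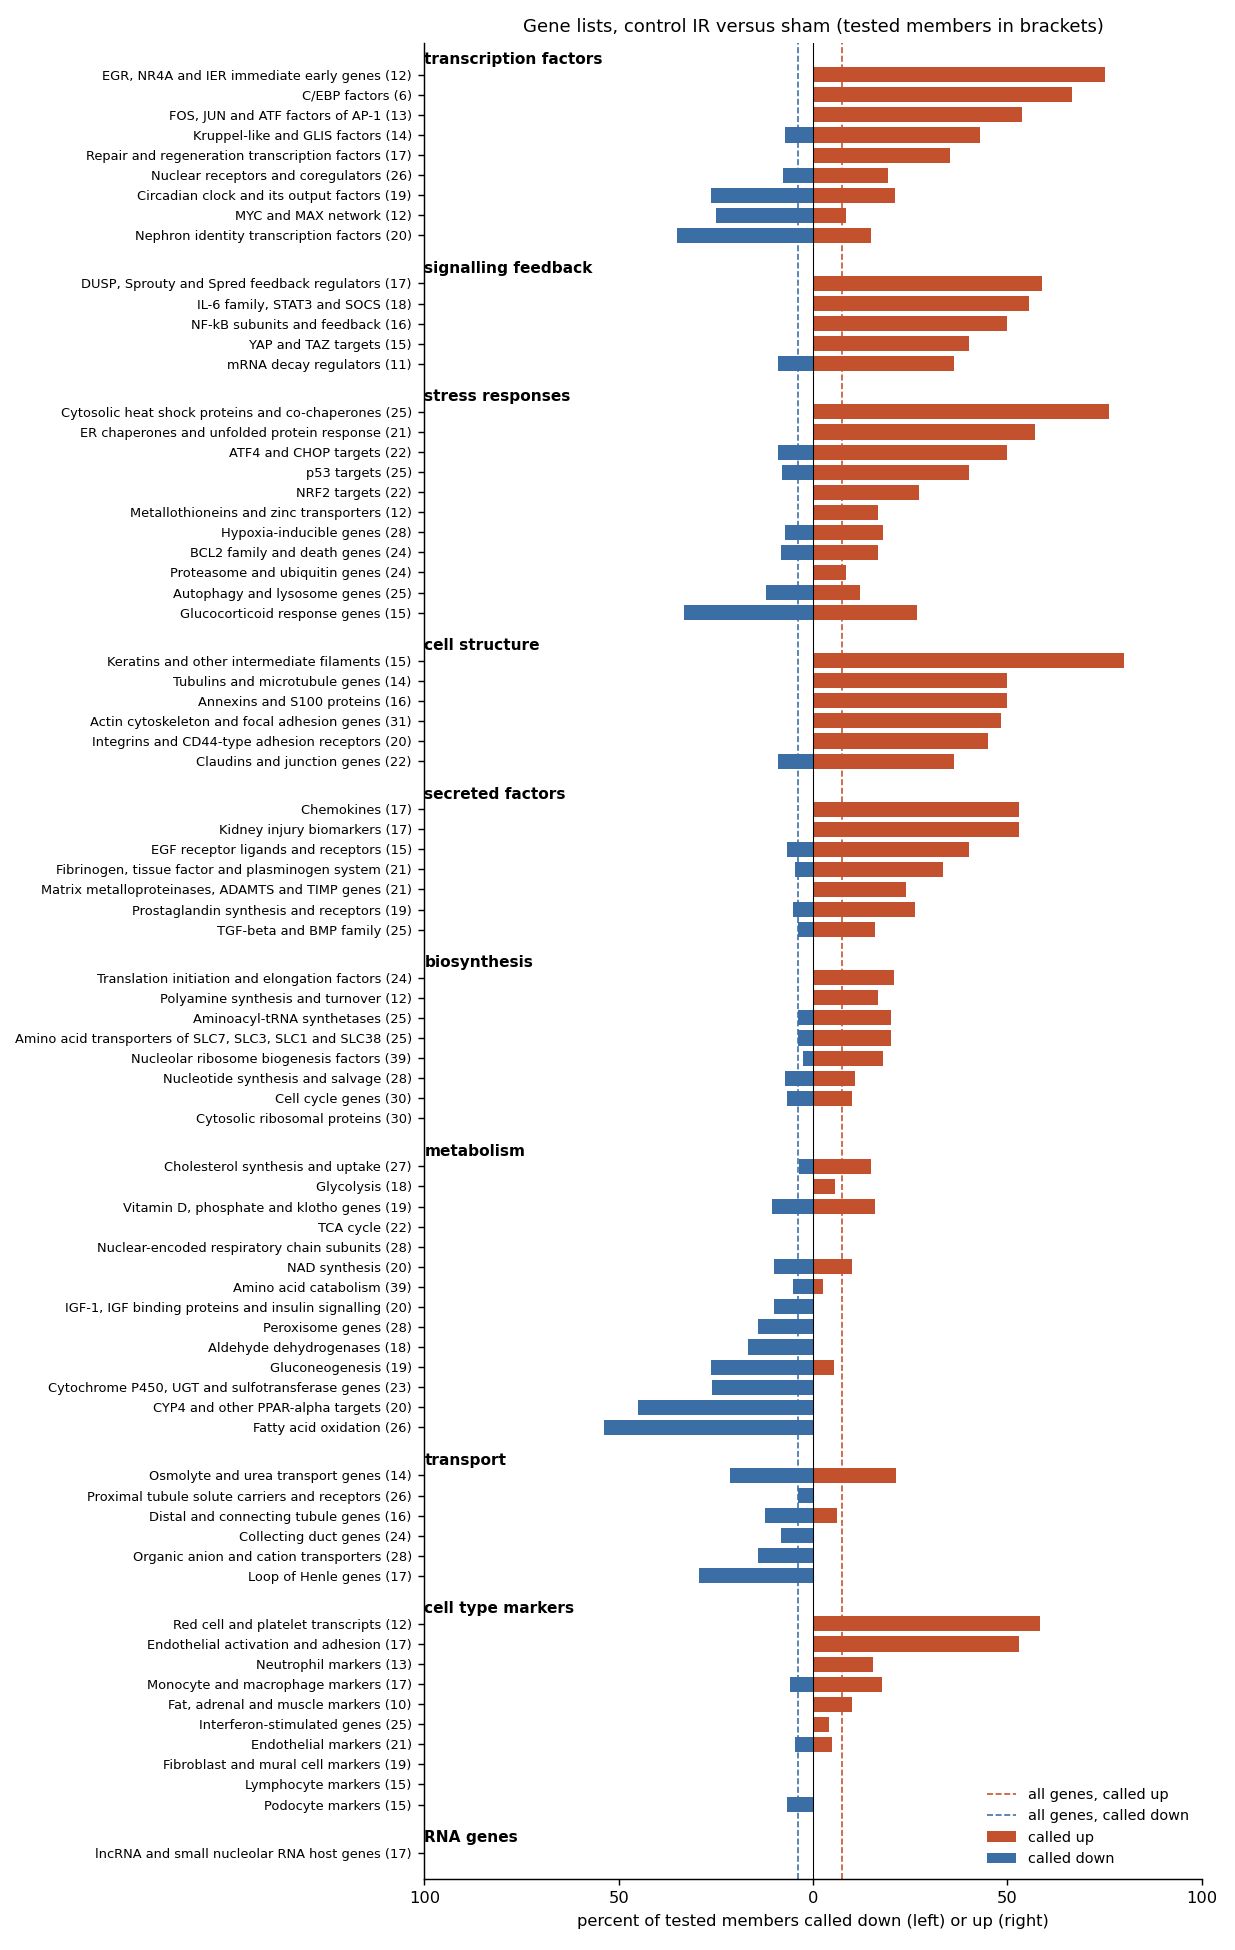
Each row is 1 of 77 gene lists with its number of tested members, and bars give the percent of those members called up (right, red) and called down (left, blue), with dashed lines at the percentages over all genes, 7.48% up and 4.02% down. Keratins, heat shock proteins and immediate early genes reach furthest to the right and fatty acid oxidation furthest to the left, while the TCA cycle, respiratory chain and ribosomal protein lists have no bar.

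Secreted injury factors rose too. Of 17 kidney injury biomarkers 9 rose and 0 fell. Havcr1, the shed receptor KIM-1, read 65.4, 58.8 and 56.9 in sham and 332, 225 and 251 in IR (4.35-fold, log2 2.12 ± 0.19 SE, adjusted p = 7.11e-05). Lcn2, the iron-trapping lipocalin NGAL, read 81.2, 86.1 and 134 in sham and 512, 1528 and 541 in IR. Control IR replicate 2 was nearly 3 times as high as the other IR libraries, and the rise was 7.60-fold, log2 2.93 ± 0.36 SE, adjusted p = 0.000459. Spp1, osteopontin, read 12398, 9111 and 13998 in sham and 19163, 29235 and 22728 in IR (2.004-fold, log2 1.003 ± 0.19 SE, adjusted p = 0.00594). Chemokines had 9 of 17 up and 0 down, with a median log2 fold change of 1.02, or 0.63 with genes absent from sham set at their bound. The count up was 4 without IR replicate 2 and 5 without sham replicate 3. Cxcl1, which attracts neutrophils, read 77.8, 119 and 92.3 in sham and 1355, 1006 and 1133 in IR and rose 12.05-fold, log2 3.59 ± 0.18 SE, adjusted p = 3.18e-06.

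The Cxcl1 promoter is shown because it holds NF-kB matches in a chemokine of large rise (chr5:90890995-90891244, plus strand). A pair of overlapping matches, read on opposite strands, lies 71 to 61 bases before the start. The NF-kB site was in 4.76% of all windows and in 7 of 98 genes up more than 4-fold (7.14%).
Cxcl1: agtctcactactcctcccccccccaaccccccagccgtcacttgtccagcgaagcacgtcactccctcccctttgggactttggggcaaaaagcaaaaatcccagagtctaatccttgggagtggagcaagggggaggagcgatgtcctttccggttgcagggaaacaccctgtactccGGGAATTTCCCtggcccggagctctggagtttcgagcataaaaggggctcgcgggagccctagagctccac

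Among EGF receptor genes 6 of 15 rose and 1 fell, and the count up was 2 without IR replicate 2. The ligand Hbegf read 891, 752 and 642 in sham and 3738, 4575 and 3304 in IR (5.08-fold, log2 2.34 ± 0.15 SE, adjusted p = 7.8e-06) and Nrg1 read 605, 863 and 827 in sham and 2134, 2315 and 2486 in IR (3.05-fold, log2 1.61 ± 0.14 SE, adjusted p = 6.36e-05). Erbb3, a receptor of the neuregulins, fell from 5113, 6461 and 5779 to 3689.9, 2895 and 2889 (1.84-fold, log2 -0.88 ± 0.13 SE, adjusted p = 0.00151). In the clotting and plasminogen list 7 of 21 rose and 1 fell. F3, tissue factor, was steady in sham at 355, 350.5 and 370.4 and reached 2826, 2085 and 1871 in IR (6.19-fold, log2 2.63 ± 0.15 SE, adjusted p = 4.09e-06). The falling member was the fibrinogen chain Fga, from 1265, 1675 and 3613 to 492, 616 and 518 (3.65-fold, log2 -1.87 ± 0.30 SE, adjusted p = 0.00226), with sham replicate 3 the highest. Of 21 metalloproteinase, ADAMTS and TIMP genes 5 rose (3 without IR replicate 2) and 0 fell, with Adamts1 at 2161, 3176 and 2781 in sham and 8652, 10696 and 7805 in IR (3.36-fold, log2 1.75 ± 0.16 SE, adjusted p = 7.06e-05).

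The gene with the largest rise in CPM was Cndp2, a cytosolic dipeptidase (chromosome 18, 84667465 to 84685702). It read 5074, 4097 and 4652 in sham and 31191, 26721 and 23405 in IR, a rise of 5.86-fold, log2 2.55 ± 0.14 SE, adjusted p = 3.82e-06. Sdc4, a heparan sulfate proteoglycan of focal adhesions, read 12241, 10232 and 11785 in sham and 23481, 22166 and 19754 in IR (1.91-fold, log2 0.93 ± 0.12 SE, adjusted p = 0.000719). Both were already high in sham and separated fully. Biosynthesis genes moved in smaller numbers. Of 39 ribosome biogenesis factors 7 rose and 1 fell, but the count up was 1 without IR replicate 2, 2 without sham replicate 1, or IR replicate 1 and 3 without IR replicate 3. Nop58 stood at 561, 552 and 612 in sham and 1113, 1339.8 and 1115 in IR (2.06-fold, log2 1.04 ± 0.12 SE, adjusted p = 0.000232). Of 30 ribosomal protein genes 0 passed by limma, edgeR or DESeq2, with 1 at an unadjusted p under 0.05, and their median log2 fold change was 0.05. Of 25 aminoacyl-tRNA synthetases 5 rose and 1 fell, and the count up was 0 without IR replicate 2, 1 without IR replicate 3 and 2 without sham replicate 1. The falling gene, the mitochondrial leucine synthetase Lars2, read 1478, 1353 and 1637 in sham and 305, 376 and 304 in IR and fell 4.53-fold, log2 -2.18 ± 0.13 SE, adjusted p = 4.76e-06. Of 25 amino acid transporters 5 rose (2 without IR replicate 2 or 3 and 3 without sham replicate 3) and 1 fell, with the arginine carrier Slc7a1 up from 477, 564 and 423 to 1072, 1325 and 1211 (2.47-fold, log2 1.30 ± 0.14 SE, adjusted p = 0.000152).

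Fatty acid oxidation, the chief fuel pathway of the tubule, had 14 of 26 members down and 0 up (median log2 -0.48), against 4.02% down over all genes, and 0 members had a higher IR mean. The count down was 8 without IR replicate 2. Cpt1a, the gate for entry of fatty acids into mitochondria, read 19171, 22171 and 20680.2 in sham and 12694, 10943 and 10933 in IR and fell 1.80-fold, log2 -0.84 ± 0.12 SE, adjusted p = 0.00111. Its partners Slc25a20 and Cpt2 fell 1.89-fold and 1.82-fold. Acaa1b, a peroxisomal thiolase, read 2328, 2919.5 and 2788 in sham and 1298, 1147 and 1274 in IR (2.15-fold, log2 -1.11 ± 0.12 SE, adjusted p = 0.000157). Ehhadh, a peroxisomal enzyme, was among the 10 largest CPM falls, at 1.83-fold lower, but did not pass with Control IR replicate 2 left out (adjusted p = 0.0692). CYP4 and other PPAR-alpha targets had 9 of 20 down and 0 up. Cyp4a14, a fatty acid hydroxylase, read 2877, 8711 and 9217 in sham and 546, 922 and 1669.8 in IR, and fell 6.50-fold, log2 -2.70 ± 0.45 SE, adjusted p = 0.00281. Sham replicate 1 was far below the other sham libraries and still above every IR library. Plin5, a coat protein of lipid droplets, read 548, 677 and 797 in sham and 245, 170.3 and 150.3 in IR (3.60-fold, log2 -1.85 ± 0.20 SE, adjusted p = 0.000183), and G0s2, an inhibitor of lipolysis, read 1748, 2235 and 1166 in sham and 664, 332 and 419.6 in IR (3.66-fold, log2 -1.87 ± 0.26 SE, adjusted p = 0.00104).

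Gluconeogenesis genes had 5 of 19 down and 1 up. Pck1, the rate-limiting carboxykinase of the pathway, had the largest fall in CPM of all called genes, and G6pc came next. Pck1 read 171155, 171894 and 172849.6 in sham and 69452, 55344 and 67264 in IR. The sham libraries lay very close together, and the fall was 2.70-fold, log2 -1.43 ± 0.17 SE, adjusted p = 0.000336. G6pc, the last enzyme of the pathway, read 48765, 36096 and 30578 in sham and 7695, 4660.0 and 4416 in IR and fell 6.98-fold, log2 -2.80 ± 0.22 SE, adjusted p = 3.44e-05. Igfbp1, an insulin-suppressed binding protein, read 5563, 1946 and 3782 in sham and 862, 389.8 and 295 in IR (7.43-fold, log2 -2.89 ± 0.40 SE, adjusted p = 0.000927). Glul, glutamine synthetase, read 24853, 21276 and 24912 in sham and 10099, 8134 and 7763 in IR (2.74-fold, log2 -1.46 ± 0.13 SE, adjusted p = 7.67e-05). Hpd, an enzyme of tyrosine breakdown, was 1 of 2 falling members of 39 amino acid catabolism genes (1 rose, and 2 down became 4 without sham replicate 2, or IR replicate 1), at 5656, 3837 and 6243 in sham and 1958, 1817 and 1711 in IR (2.81-fold, log2 -1.49 ± 0.16 SE, adjusted p = 0.000198).

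Upp2, a uridine phosphorylase, read 2726, 2602 and 2086 in sham and 431, 230.3 and 159 in IR (9.75-fold, log2 -3.29 ± 0.28 SE, adjusted p = 5.53e-05). Of 23 cytochrome P450, UGT and sulfotransferase genes 6 fell and 0 rose. Cyp2d9, a steroid hydroxylase with close paralogs, read 3794, 4623 and 7271 in sham and 1787, 1418 and 881 in IR (3.85-fold, log2 -1.94 ± 0.27 SE, adjusted p = 0.000835). Both vitamin D hydroxylases were lower. Cyp24a1, which inactivates the hormone, read 2339.9, 3750.4 and 6027 in sham and 913, 983 and 1096 in IR (3.77-fold, log2 -1.92 ± 0.26 SE, adjusted p = 0.000835). Cyp27b1, which activates it, read 792, 175 and 119 in sham and 31.3, 25.99 and 24.7 in IR. Sham replicate 1 was more than 4 times the other sham libraries, and the fall of 9.07-fold (adjusted p = 0.00336) became 5.15-fold without it. Aldh1a7, an aldehyde dehydrogenase, read 744, 1129 and 1492 in sham and 326, 217 and 249 in IR (4.13-fold, log2 -2.05 ± 0.23 SE, adjusted p = 0.000256). Against these falls, no gene passed among 22 TCA cycle genes or 28 nuclear-encoded respiratory chain subunits by limma, edgeR or DESeq2 (1 and 0 at an unadjusted p under 0.05), with medians of -0.11 and -0.09 on the log2 scale. Of 18 glycolysis genes 1 rose and 0 fell. The gene that rose was the hexokinase Hk2, which missed the threshold once Control IR replicate 2 was dropped (adjusted p = 0.0515).

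Transport genes were read by tubule segment. Of 26 proximal tubule carriers and receptors 1 fell, the fructose carrier Slc2a5, and 0 rose, a share down of 3.85% beside 4.02% of all genes. Slc2a5 was not called when replicate 1 or 3 of either group was dropped (highest adjusted p 0.149). Slc22a6, the organic anion carrier OAT1, read 28365, 27859.5 and 27002 in sham and 32036, 28127 and 25104 in IR (log2 0.03 ± 0.13 SE, adjusted p = 0.931). In the vitamin D and phosphate list 3 of 19 rose (5 without sham replicate 2) and 2 fell. Slc20a1, a sodium-phosphate carrier of many cell types, read 1180.1, 1721 and 1773 in sham and 6625, 4349 and 5450.1 in IR and rose 3.52-fold, log2 1.82 ± 0.18 SE, adjusted p = 0.000121. In the loop of Henle 5 of 17 genes fell (3 without sham replicate 3, or IR replicate 1 or 3) and 0 rose. Bsnd, the chloride channel subunit barttin, read 746, 725 and 786 in sham and 388, 229 and 309 in IR (2.49-fold, log2 -1.31 ± 0.18 SE, adjusted p = 0.000719), and Kcnj1, the ROMK potassium channel, read 2979, 2740.4 and 3576 in sham and 1616, 1666 and 2052 in IR (1.74-fold, log2 -0.80 ± 0.13 SE, adjusted p = 0.00283). Further along, 2 of 16 distal tubule genes fell (1 without IR replicate 1, 2 or 3) and 1 rose. Trpv5, the calcium entry channel, read 279, 244 and 361 in sham and 516, 810.1 and 723 in IR (2.30-fold, log2 1.20 ± 0.19 SE, adjusted p = 0.00226). Klhl3, which tags WNK kinases for degradation, read 725, 827 and 626 in sham and 413, 356 and 422 in IR (1.82-fold, log2 -0.86 ± 0.14 SE, adjusted p = 0.00224). Of 24 collecting duct genes 2 fell and 0 rose. Hmx2, a homeobox factor, read 141, 166 and 176 in sham and 29.1, 28.7 and 31.4 in IR with almost equal IR libraries (5.25-fold, log2 -2.39 ± 0.20 SE, adjusted p = 5.27e-05), and Foxi1, the factor of intercalated cells, fell 1.93-fold, log2 -0.95 ± 0.14 SE, adjusted p = 0.0016. Slc6a6, the taurine carrier, read 10213, 12874 and 15372 in sham and 6499, 5988 and 6429 in IR (2.01-fold, log2 -1.005 ± 0.14 SE, adjusted p = 0.0012).

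Markers of other cell types were read over whole lists, with summed CPM per library. Red cell and platelet transcripts had 7 of 12 tested members up and 0 down, and their sum went from 128 to 240 CPM in sham (range over libraries) to 406 to 680 in IR. Alas2, the red cell heme enzyme, read 60.9, 63.2 and 89.1 in sham and 194, 350.4 and 233 in IR (3.55-fold, log2 1.83 ± 0.24 SE, adjusted p = 0.000712). Haemoglobin genes have near-identical copies, and Hbb-bs was 4.13-fold higher. Neutrophil markers summed to 9.25 to 18.3 CPM in sham and 18.7 to 49.1 in IR, with 2 of 13 tested up and 0 down, and Elane had no read. The genes that rose were Clec4e and Il1r2, and the count up was 0 without IR replicate 2 and 1 without sham replicate 1, or IR replicate 1 or 3. S100a9, an abundant neutrophil transcript, read 42.9, 28.1 and 77.3 in sham and 62.6, 207 and 68.5 in IR. The groups overlapped and it did not pass by limma, though DESeq2 called it (limma log2 1.07 ± 0.46 SE, adjusted p = 0.187). Monocyte and macrophage markers summed to 209.6 to 218 CPM in sham and 261 to 269 in IR, with 3 up (1 without IR replicate 2) and 1 down of 17. Cd68, a lysosomal protein of macrophages, read 33.8, 27.2 and 39.7 in sham and 188, 204 and 182 in IR (5.61-fold, log2 2.49 ± 0.21 SE, adjusted p = 5.12e-05). It had the largest rise of this list. The other genes that rose, Lyz2 (log2 1.13) and Cd14 (log2 1.11), were not called by limma without IR replicate 2 (adjusted p = 0.0781 and 0.0531). Lymphocyte markers summed to 3.09 to 5.07 CPM in sham and 4.46 to 6.17 in IR, and 0 of 15 passed by limma, edgeR or DESeq2 (3 at an unadjusted p under 0.05). The part of blood cells in the chemokine and adhesion results was not tested.

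Endothelial markers had 1 up, Cdh5, and 1 down, Ptprb, of 21, with sums of 1267 to 1486 CPM in sham and 1134 to 1453 in IR. Cdh5, VE-cadherin, was not called without IR replicate 2 (adjusted p = 0.0538). Ptprb, the endothelial phosphatase VE-PTP, read 3072, 4386 and 3296 in sham and 2060.2, 2173 and 2738 in IR. It fell 1.54-fold, log2 -0.62 ± 0.15 SE, adjusted p = 0.0246, a call that ended when sham replicate 3, IR replicate 1 or IR replicate 2 was dropped (adjusted p = 0.0576, 0.0918, 0.124). Tek, the Tie2 receptor, read 1096, 1108 and 1114 in sham and 847, 774 and 1189 in IR with overlapping groups (adjusted p = 0.327). Endothelial activation and adhesion genes had 9 of 17 up and 0 down. Whole kidney RNA does not show which cells made these transcripts, and Adamts1 is also in the metalloproteinase list. Vcam1 read 362, 315 and 299.5 in sham and 886, 906 and 597 in IR (2.41-fold, log2 1.27 ± 0.17 SE, adjusted p = 0.000719), and Apln, a peptide of sprouting endothelium, read 67.7, 125 and 94.5 in sham and 398, 488 and 230.3 in IR (3.80-fold, log2 1.93 ± 0.29 SE, adjusted p = 0.00149). Podocyte markers had 0 up and 1 down of 15. Of 19 fibroblast and mural markers 0 passed by limma, edgeR or DESeq2 (3 at an unadjusted p under 0.05), with sums of 874 to 1274 CPM in sham and 853 to 1425 in IR. Of 25 interferon-stimulated genes 1 rose, Ifit3, and 0 fell. Ifit3 was not called when replicate 2 or 3 of either group was dropped (highest adjusted p 0.0992).

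The lists not yet described are set beside 7.48% up and 4.02% down over all genes. Shares up ranged from 0%, as in aldehyde dehydrogenases, to 26.3% in prostaglandin genes. Shares down ranged from 0%, as in translation factors, to 21.4% in osmolyte and urea transport genes. Counts of 3 or fewer in these lists came to between 0 and 5 when 1 library was left out. Among nuclear receptors and coregulators 5 rose (3 without IR replicate 2) and 2 fell of 26. Of 24 BCL2 family and death genes 4 rose and 2 fell, with Mcl1, which guards mitochondria against BAX and BAK, at 3409, 3547 and 4025 in sham and 6425, 7396 and 6588 in IR (1.86-fold, log2 0.89 ± 0.11 SE, adjusted p = 0.000423). Autophagy and lysosome genes had 3 up and 3 down of 25. Ctsl, the protease cathepsin L, was among the 10 largest CPM falls and read 26136, 23972 and 31497 in sham and 13171, 11841 and 11254 in IR (2.24-fold, log2 -1.16 ± 0.14 SE, adjusted p = 0.000309). Of 24 proteasome and ubiquitin genes 2 rose and 0 fell, a share up of 8.33% that is near that of all genes. Translation factors had 5 up (3 without IR replicate 1 or 2) and 0 down of 24, polyamine genes 2 up and 0 down of 12, and nucleotide synthesis genes 3 up and 2 down of 28. Of 30 cell cycle genes 3 rose and 2 fell, with the G1 kinase Cdk6 at 514, 643 and 443 in sham and 1213, 1293 and 1740.3 in IR (2.65-fold, log2 1.405 ± 0.17 SE, adjusted p = 0.000363). TGF-beta and BMP genes had 4 up (1 without sham replicate 1, or IR replicate 1 or 2) and 1 down of 25, and prostaglandin genes 5 up (0 without IR replicate 2, 2 without sham replicate 1 or 3, or IR replicate 1 and 3 without IR replicate 3) and 1 down of 19.

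Cholesterol genes had 4 up and 1 down of 27. Of 18 aldehyde dehydrogenases 3 fell and 0 rose, and of 28 peroxisome genes 4 fell (2 without IR replicate 2 and 7 without sham replicate 2, or IR replicate 1) and 0 rose. NAD synthesis genes had 2 up and 2 down of 20, and IGF-1 and insulin signalling genes 0 up and 2 down of 20. Organic anion and cation transporters had 4 of 28 down (1 without sham replicate 3, or IR replicate 2 or 3) and 0 up, with the anion carrier Slco1a4 at 135, 106 and 122 in sham and 56.1, 43.9 and 39.96 in IR (2.58-fold, log2 -1.37 ± 0.22 SE, adjusted p = 0.00224). Osmolyte and urea transport genes split evenly, 3 up and 3 down of 14. Markers of fat, adrenal gland and muscle, tissues next to the kidney, had 1 up and 0 down of 10, the rise being the fat marker Fabp4, which was not called when sham replicate 1 or IR replicate 2 or 3 was dropped (highest adjusted p 0.133), and Myh4 and Mb had no read. Of 17 long noncoding and small nucleolar host RNAs 0 rose and 0 fell by limma, edgeR or DESeq2 (4 at an unadjusted p under 0.05).

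Several genes that changed alike lie side by side among the genes tested, and untested genes may lie between them. These runs were picked after their values were seen and are described without a test. On chromosome 12 (mm10, 83987861 to 84076019) the acyl-CoA thioesterases Acot2, Acot1, Acot4, Acot3 and Acot5, which free fatty acids from coenzyme A, all fell, by log2 -1.13, -1.85, -0.43, -1.36 and -1.10. They are close paralogs, so reads can be split between them, and Acot4 and Acot5 lost their calls when single libraries were left out (highest adjusted p 0.133 and 0.104). On chromosome 5 (90768518 to 90905938) the chemokine genes Ppbp, Pf4, Cxcl3, Cxcl1 and Cxcl2 all rose, by log2 1.84, 2.79, 2.41, 3.59 and 4.55. Ppbp and Pf4 are platelet chemokines, and of the 5 only Cxcl1 stood above 100 normalised counts in IR. Cxcl3 had no read in sham and at most 6.27 in IR, and its call ended when sham replicate 3 or any IR replicate was dropped (highest adjusted p 0.13). Ppbp missed the threshold without IR replicate 3 (adjusted p = 0.0512), and Cxcl2, 23.5-fold higher, was 12.7-fold higher without sham replicate 1. On chromosome 3 (92365187 to 92573735) the cornified envelope genes Sprr2f, Sprr2g, Sprr1a and Ivl rose, Ivl from 2.26, 8.78 and 9.66 to 86.3, 78.9 and 75.2 (11.6-fold, log2 3.54 ± 0.44 SE, adjusted p = 0.000426). With 5 in place of 1 added before the logarithm, the log2 rises were 2.90 for Ivl, 2.05 for Pf4 and 3.38 for Cxcl2. On chromosome 15 Krt4, Krt8 and Krt18 rose (log2 2.30, 2.56 and 1.49), and on chromosome 4 Cyp4a14, Cyp4a10 and Cyp4a31 fell (log2 -2.70, -1.05 and -1.04), again with close paralogs.

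**Figure D5:**
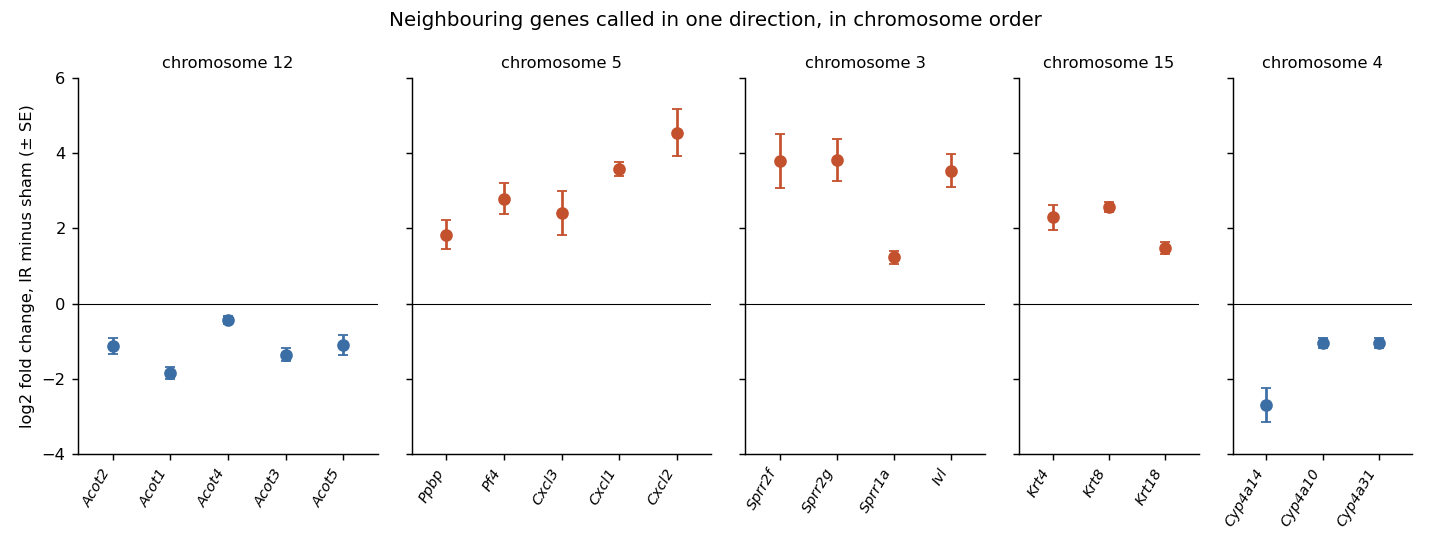
Points are the log2 fold change of IR minus sham with its standard error, red for called up and blue for called down. The genes are neighbours among the genes tested on 5 chromosomes, in chromosome order within each panel, and untested genes between them are not shown. Within each run all genes lie on 1 side of 0, with the thioesterase and Cyp4a runs below it and the chemokine, envelope and keratin runs above it.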

How the data were processed

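The deposited table holds 1 signal column per library, which are normalised counts: gene reads divided by 1 size factor, as the values show. Per the submitters' processing notes, the authors used FastQC, STAR, HTSeq and DESeq2 with mm10, and neither versions nor the strand setting are stated. The table also holds the authors' log2 fold changes and their p-values, per the file headers, which mark 2886 genes, 1811 of them among the 1870 called here with the same sign. Repeated lines were merged, which left 23286 genes from 23493 lines, and 4934 of these had no read. Multiplying by size factors found from the smallest steps gave whole reads for 100.0% of values (tolerance 0.02).

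Genes with a mean normalised count of at least 1 (16257) were tested on log2(value + 1) with limma 3.58.1 in R 4.3.3, IR against sham, 6 libraries, with Benjamini-Hochberg adjustment over all genes and a threshold of 0.05. Fold changes are on this scale, which understates changes of low genes. Errors are standard errors of the log2 fold change, n = 3 per group. Count tests on the recovered reads used edgeR 4.0.16 (1867 genes called) and DESeq2 1.42.0. Further alternatives were TMM scaling, other filters and pseudocounts, library weights, a replicate block and leaving out each library. The limma step was tested on simulated data.

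Members of the comparison and its 77 gene lists (1605 entries, 1587 matched) were chosen with earlier results of these data known. Genes were named by rule: the 15 top and 15 bottom genes by log2 fold change, of those called, not overlapping and at a mean level of 5 CPM or more, the 10 largest rises and falls in CPM, up to 4 called members of each list by fold change and 2 by level, Havcr1, Lcn2, Ptprb, Tek and Malat1, and the 10 highest genes absent from sham. Named outside the rule, after their values were seen, were Acot3, Acot4, Acot5, Alas2, Cpt1a, Cpt2, Slc25a20, Cyp4a10, Cyp4a31, Ddit4, Sesn2, Ivl, Klf15, Krt4, Krt18, Pax8, Irx3, Ppbp, Sprr1a, Sprr2g, Tjp3, Vcam1, Vim and the genes under other observations. Some genes that the rule names are not reported here. Deposited gene starts count from 0 and are printed from 1. Promoter sequences are RefSeq's, build GRCm38.p6.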

Additional observations from a re-analysis of the deposited data

How the results depend on the processing

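The count of 1870 genes was most moved by single libraries. Leaving out 1 library gave 843 to 2007 genes in all, 600 to 1359 up and 243 to 648 down, with the lowest counts without Control IR replicate 2; these fits have fewer samples. Under TMM scaling, other filters, other pseudocounts, library weights, edgeR and DESeq2 the count stayed within 1.5 times, from 1777 with no filter on low values to 2651 with library weights. DESeq2 called 2205, 1364 up and 841 down. Of 395 named genes, 301 kept their side of the threshold without Control IR replicate 2 and 390 with edgeR, and no called gene changed direction in any setting. With the replicate number as a block 1805 genes passed, 1183 up and 622 down. The deviations of same-numbered libraries correlated at 0.09, -0.02 and -0.11, and those of differently numbered libraries at -0.17 to 0.2. With 3 libraries a group these values cannot show whether the numbers pair samples. Over 52 list directions with 0 calls by limma, edgeR called 1 member and DESeq2 4, and 31 had an unadjusted p under 0.05. With 3 libraries a group, the smallest rise called was 1.27-fold and the smallest fall 1.28-fold by limma.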

Other observations

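The genes and groups below were picked after their values were seen. Vgf, Grp, Tac1 and Nts are 4 genes of secreted peptides, chosen from the rises and not from a fixed list. Vgf, a precursor of secretory granule peptides, read 0, 1.76 and 0 in sham and 35.6, 171 and 14.3 in IR (32.7-fold, log2 5.03 ± 0.79 SE, adjusted p = 0.00209), with Control IR replicate 2 far above the others. Its rise was 16.9-fold without that library and 56.6-fold without replicate 3. Grp, gastrin-releasing peptide, read 1.13, 0 and 0 in sham and 15.1, 43.9 and 5.71 in IR (13.2-fold, log2 3.72 ± 0.70 SE, adjusted p = 0.00601) and was likewise highest in Control IR replicate 2, without which it was 8.08-fold higher, and 20.9-fold without replicate 3. Tac1, which encodes substance P, read 0, 0 and 1.07 in sham and 12.9, 8.96 and 12.4 in IR (9.64-fold, log2 3.27 ± 0.53 SE, adjusted p = 0.00263) with similar IR libraries. Fitted folds of genes this low depend on the method: Vgf ranged from 9.34-fold with 5 added before the logarithm to 116-fold by DESeq2, Grp from 4.10 to 59.2-fold and Tac1 from 3.06 to 31.2-fold. Nts, neurotensin, had no read in sham and stood at 12.9, 10.8 and 1.90 in IR, and its call ended without sham replicate 3 or IR replicate 1 or 2 (highest adjusted p 0.109). All these levels are low, and the cells that made these transcripts are not known from whole kidney RNA.

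Some low genes, among them Cldn14 above, had larger falls than those in the plot of library values, which leaves out genes of low mean level. A further pair is described here. Creb3l3, a membrane-bound transcription factor of fasting metabolism, read 69.9, 59.7 and 144 in sham and 6.47, 2.69 and 3.81 in IR, a fall of 16.8-fold, log2 -4.07 ± 0.41 SE, adjusted p = 0.000127. Eif4ebp3, an inhibitor of cap-dependent translation, read 166, 164 and 148 in sham and 25.9, 9.86 and 13.3 in IR and fell 9.95-fold, log2 -3.31 ± 0.32 SE, adjusted p = 9.93e-05. Their groups were fully separate, and both passed in all 15 alternative settings, Creb3l3 with a log2 fold change of -3.29 when 5 was added in place of 1.

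Few genes of the X chromosome changed. Of 536 tested there, 20 rose and 5 fell, 4.66% in all beside 11.5% of all genes. Among genes at a mean level of 5 CPM or more, 5.33% of 300 on the X chromosome were called, against 11.5 to 17.9% on single autosomes. This difference was noticed in the data and was not tested.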
